A study of Mus musculus with 2 samples.

Results

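MHC class II molecules present peptides from engulfed proteins to CD4 T cells, and the 10 genes described here encode the chains, the loading machinery, a coactivator and an adaptor of that pathway. They are H2-Aa, H2-Ab1, H2-Eb1, H2-Eb2, Cd74, H2-DMa, H2-DMb1, H2-DMb2, Ciita and Scimp, taken by name from the 21631 protein-coding genes over which DNA accessibility was counted. The data are single-nucleus ATAC-seq fragments, which mark DNA that a transposase could reach and do not measure RNA or protein. Non-parenchymal liver cells enriched with beads for F4/80, a surface marker of tissue macrophages, came from 2 untreated male littermates of 8 to 10 weeks. The first mouse was Spta wt/wt and the other Spta sph/sph, where Spta encodes the red cell membrane protein alpha spectrin and its sph allele gives fragile red cells. Each genotype is thus 1 animal and 1 library. The deposited barcodes carry suffix 1 or 2, no label ties a suffix to a genotype, and the libraries are therefore called library 1 and library 2 and no comparison of genotypes was made.

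In the class II pathway, alpha and beta chains pair in the endoplasmic reticulum with the invariant chain, travel to endosomes, and exchange a remnant of that chain for peptide with the help of the H2-DM dimer. Transcription of the chain, invariant chain and H2-DM genes is known to depend on short promoter boxes, called X and Y, bound by RFX, CREB and NF-Y proteins, and on the coactivator Ciita, which is recruited to them without binding DNA itself. Kupffer cells, the resident macrophages of the liver, are known to carry class II molecules, and dendritic cells and B cells carry more.

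Promoter sequences are shown because the X and Y boxes are the shared feature through which the chain, invariant chain and H2-DM genes are known to be regulated together, which the choice of genes did not use. Entries for 6 of the 10 genes were found in RefSeq's promoter table (GRCm38.p6, 250 bases before to 50 after a start). Both strands were searched for the X motif, a pattern of 11 letters of which 4 are free, and for the Y motif ATTGG, which do not overlap each other. Of 32851 promoters in the table, 3.09% held the X motif and 37.4% the Y motif on either strand. An X motif followed by a Y motif after 10 to 30 bases was found in 23 promoters (0.07%) of 22 genes, among them H2-Eb1, H2-Eb2, H2-DMb1 and H2-Ob, which encodes a chain of the H2-DM inhibitor H2-O. The 200 bases before the start are given for the 3 genes whose stretch overlaps no gene record, 5′ to 3′ on the strand of the gene, with X and Y matches on that strand in capitals. H2-Eb1 holds 1 further Y match on the other strand, which is left in lower case.
H2-Eb1, chr17:34305667-34305866, plus strand: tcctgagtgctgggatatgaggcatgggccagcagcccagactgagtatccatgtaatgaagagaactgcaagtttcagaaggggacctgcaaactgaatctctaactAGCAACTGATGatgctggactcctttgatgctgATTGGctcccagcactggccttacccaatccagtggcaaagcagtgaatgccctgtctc
H2-DMb1, chr17:34152991-34153190, plus strand: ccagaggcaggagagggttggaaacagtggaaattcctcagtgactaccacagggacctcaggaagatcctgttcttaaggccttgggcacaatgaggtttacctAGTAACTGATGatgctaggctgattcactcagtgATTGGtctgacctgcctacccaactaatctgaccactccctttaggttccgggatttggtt
H2-Aa, chr17:34287824-34288023, minus strand: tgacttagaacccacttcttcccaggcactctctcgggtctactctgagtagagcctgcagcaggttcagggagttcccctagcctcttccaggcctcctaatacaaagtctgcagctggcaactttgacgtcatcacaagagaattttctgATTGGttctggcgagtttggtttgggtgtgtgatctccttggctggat

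The X match of H2-Eb1 began 92 bases before its start and was separated by 22 bases from its Y match. In H2-DMb1 the X match began 95 bases before the start and the gap was 23 bases. H2-Eb2 held the same X letters as H2-Eb1, AGCAACTGATG, 133 bases before its start, again with a gap of 22 bases. H2-Aa and H2-DMb2 held a Y match, 48 and 90 bases before the start, and no match to the X letters in this window. The first listed start of H2-DMa differed from the others in composition: its 200 bases held 23 CpG dinucleotides and 76.5% G and C, against a median of 5 CpG over the 32851 promoters, and neither motif. These bases overlap the record of the neighbouring gene Brd2, which has a listed start at 34122607 on the opposite strand, so they cannot be credited to H2-DMa alone. The second listed start of H2-DMa held 0 CpG, 35.5% G and C, a Y match 198 bases before it and no X match.

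Library 1 held 11401694 fragments and 637 barcodes called as cells, and library 2 held 21656110 fragments and 575 called cells, with no cell barcode sequence shared. After filtering, 609 and 562 cells remained, and clustering within each library gave 335 and 259 Kupffer-like cells, 128 and 154 liver endothelial-like cells, 65 and 28 stellate-like cells and 52 and 94 cells of a mixed leukocyte cluster. The remaining cells were 29 hepatocyte-like cells in library 1 and 27 cells of an unnamed cluster in library 2, with a median of 83558 fragments per cell and 31.4% of them in peaks. The leukocyte cluster was left unnamed as to type because its leading genes, such as Flt3, did not match the monocyte list that scored highest. The libraries differed in quality: cells had a median of 72.1% of their fragments in peaks in library 1 and 53.7% in library 2, and 0.647% against 12.1% of fragments lay in local pile-ups, bins of 20 kb with many fragments of 1 cell. Marker signal was lower in library 2 for both main classes. The 10 Kupffer markers summed to 883 and 465 CPM (fragments per 1000000 fragments of the cell class) in Kupffer-like cells, with all 10 detected in each library. The 12 endothelial markers summed to 1972 and 1030 CPM in endothelial-like cells.

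Each gene level is the CPM over the gene with 2 kb on both sides, with its 95% Poisson interval. Ratios between groups are log2 values relative to the median gene, with exact conditional binomial intervals. With 1 library per suffix, intervals cover counting error only and no test was possible. A gene counts as higher or lower when its ratio passed 2-fold over at least 50 fragments. This minimum is on the 2 groups together, so that 1 group can supply most of it. The classes held 5793501 and 3869877 fragments (Kupffer-like), 1615909 and 2364540 (endothelial-like) and 782139 and 2179672 (mixed leukocyte) in libraries 1 and 2.

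In library 1, 9 of the 10 genes were at least 2-fold more accessible in Kupffer-like than in endothelial-like cells, and H2-DMa was the exception. Across all genes tested in that comparison 12.1% were higher and 9.74% lower by the same rule. In library 2, 5 of the 8 genes with enough fragments passed, against 10.1% of all genes (9.90% were lower, and none of the 8): Cd74, H2-Ab1, H2-Eb1, H2-DMb1 and H2-DMb2. The 9 genes of library 1 and the 5 of library 2 all reached the minimum mostly through Kupffer-like cells. In library 2, H2-DMb1 had 44 fragments there and 9 in endothelial-like cells. Cd74 had 161 and 24, H2-Ab1 92 and 17, H2-Eb1 111 and 27, and H2-DMb2 119 and 8. H2-Aa, with 34 and 14, and H2-Eb2, with 28 and 7, fell short of the minimum in library 2. The median log2 ratio of the genes was 2.39 in library 1 and 1.43 in library 2, where the median over all genes is 0 by construction. None of the 10 was 2-fold higher or lower in mixed leukocytes than in Kupffer-like cells of library 1, where 3.66% of all genes were higher and 5.75% lower. In library 2, H2-Aa and Cd74 were higher in leukocytes and none was lower, against 5.45% and 9.61% of all genes. The interval of the ratio lay above the median gene for 4 of the 10 in library 1 (H2-Eb1, Cd74, H2-DMb2 and Ciita) and for 6 in library 2. The share of all genes with such an interval was not counted. Interval width depends on depth, which differs between the leukocyte groups, so these counts cannot be compared.

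The chains of the I-A molecule are encoded by H2-Aa (alpha) and H2-Ab1 (beta). H2-Aa stood at 32.6 CPM (28.1 to 37.6) in Kupffer-like cells of library 1 and at 8.79 (6.08 to 12.3) in library 2. Its level was 4.33 and 5.92 CPM in endothelial-like cells and 38.4 and 31.2 in mixed leukocytes of libraries 1 and 2. In library 1 the Kupffer-like interval of H2-Aa lay above the endothelial one, and in library 2 the intervals overlapped. Stellate-like cells held 3.83 CPM of H2-Aa in library 1 and 18.4 (9.20 to 33.0) in library 2. H2-Ab1 stood at 62.0 CPM (55.7 to 68.7) and 23.8 (19.2 to 29.2) in Kupffer-like cells, at 16.7 and 7.19 in endothelial-like cells and at 84.4 and 54.6 in mixed leukocytes. Its Kupffer-like level was above the endothelial level in both libraries, by log2 ratios of 1.86 and 1.71. Stellate-like cells held 21.7 and 23.4 CPM of H2-Ab1, the latter close to Kupffer-like cells of library 2.

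H2-Eb1 and H2-Eb2 encode beta chains of the I-E type, and H2-Ea, their alpha chain partner, is listed by RefSeq as a transcribed pseudogene in the C57BL/6J assembly used here. H2-Eb1 stood at 69.2 CPM (62.6 to 76.3) and 28.7 (23.6 to 34.5) in Kupffer-like cells of libraries 1 and 2. It stood at 24.8 and 11.4 CPM in endothelial-like cells and at 125 and 58.3 in mixed leukocytes, the order leukocyte, Kupffer-like, endothelial-like holding in both libraries without overlap of intervals. Stellate-like cells held 29.4 CPM of H2-Eb1 in library 1 and 35.2 (21.8 to 53.8) in library 2, where this interval overlapped that of Kupffer-like cells. H2-Eb2 stood at 31.8 CPM (27.3 to 36.7) and 7.24 (4.81 to 10.5) in Kupffer-like cells and at 3.09 and 2.96 in endothelial-like cells. In library 2 these 2 intervals of H2-Eb2 overlapped.

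Cd74 encodes the invariant chain. It had the highest level per kb of the 10 genes in Kupffer-like cells of library 1, at 10.2 CPM per kb of window, and a fragment of it was found in 74.3% of those cells and in 36.3% of Kupffer-like cells of library 2. Its window held 131 CPM (122 to 140) and 41.6 (35.4 to 48.5) in Kupffer-like cells, 17.9 and 10.2 in endothelial-like cells and 167 and 110 in mixed leukocytes. Stellate-like cells held 23.0 and 26.8 CPM of Cd74, below Kupffer-like cells in library 1. In library 2 the stellate-like interval, 15.3 to 43.5, overlapped that of Kupffer-like cells. In endothelial-like cells a Cd74 fragment was found in 14.8% and 11.7%, at median depths of 10601 and 10862 fragments per cell against 16063 and 12471 in Kupffer-like cells.

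H2-DMa encodes the alpha chain, and H2-DMb1 and H2-DMb2 the beta chains, of the peptide exchange factor. Over the 4 classes with cells in both libraries, H2-DMa was the gene whose level differed least. It stood at 172 CPM (161 to 183) and 174 (162 to 188) in Kupffer-like cells, 155 and 128 in endothelial-like cells, 181 and 191 in stellate-like cells and 199 and 190 in mixed leukocytes. This window overlaps Brd2, which encodes a broadly expressed bromodomain protein: the fullest tile around H2-DMa, with 990 fragments over all cells, holds a start that RefSeq lists for Brd2 on the opposite strand, at 34119900 on chromosome 17. Fragments of the 2 genes cannot be told apart there, and the level of H2-DMa is uncertain. H2-DMb1, with no such neighbour, stood at 26.1 and 11.4 CPM in Kupffer-like and 4.33 and 3.81 in endothelial-like cells. H2-DMb2 stood at 49.0 and 30.8 CPM in Kupffer-like cells and at 6.19 and 3.38 in endothelial-like cells, and its log2 ratio was 2.92 in library 1 and 3.12 in library 2. H2-DMb2 was the member with the largest ratio in library 2.

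Ciita, the coactivator, stood at 63.9 CPM (57.5 to 70.7) and 33.3 (27.8 to 39.6) in Kupffer-like cells, 17.9 and 17.8 in endothelial-like cells and 104 and 65.6 in mixed leukocytes. Its ratio of Kupffer-like over endothelial-like cells was 1.81 in library 1 and 0.91 (0.41 to 1.46) in library 2. Scimp, an adaptor that links class II molecules to signalling in antigen-presenting cells, was the only gene of the 10 that was lower in mixed leukocytes than in Kupffer-like cells of library 1 with an interval below the median gene. It stood at 101 and 32.6 CPM in Kupffer-like cells, 55.0 and 39.5 in mixed leukocytes and 20.4 and 25.4 in endothelial-like cells.

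**Figure D1:**
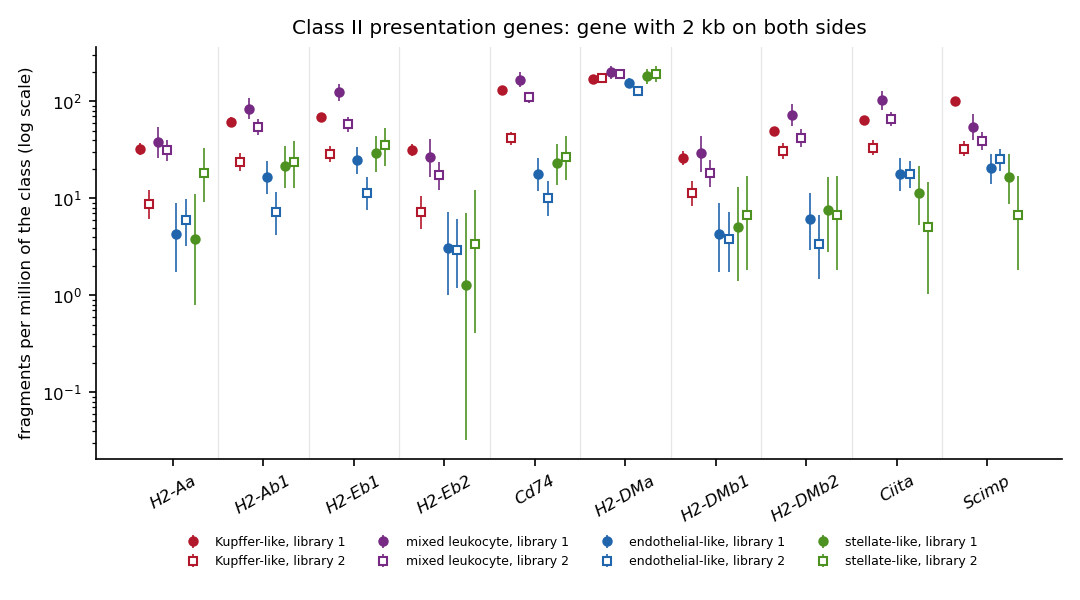
CPM (log scale) over each gene with 2 kb on both sides, by cell class (colour) and library (filled circle, library 1, open square, library 2), with 95% Poisson intervals. All genes but H2-DMa lie higher in Kupffer-like and mixed leukocyte cells of library 1 than in endothelial-like cells, and H2-DMa lies between 128 and 199 in the 4 classes drawn.

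Between the libraries, Kupffer-like cells of library 2 were lower than those of library 1 over most of these genes. Relative to the median gene, 5 genes were lower by at least 2-fold and none was higher, against 3.28% and 10.0% of all genes tested: H2-Eb2 by 1.82, H2-Aa by 1.58, Cd74 by 1.36, Scimp by 1.34 and H2-Ab1 by 1.09 on the log2 scale. H2-Eb1 was just under the rule at -0.98 (-1.30 to -0.67). H2-DMb1 was at -0.89, Ciita at -0.64 and H2-DMb2 at -0.38, all with intervals below 0. H2-DMa was at 0.31 (0.17 to 0.45), on the other side of the median gene. The median gene itself was at -0.29 before centring, so that in plain CPM every one of these ratios is lower by that amount.

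Several measures moved with this difference, and their part in it was not tested. The median share of fragments in peaks was 73.9% in Kupffer-like cells of library 1 and 53.2% in those of library 2. Of the 10 Kupffer markers, 2 were at least 2-fold lower in library 2 (Timd4 and Cd163), and their median was -0.60 with a range of -1.19 to -0.23. The median of the 10 class II genes was -1.03. Of the 1832 genes at least 2-fold higher in Kupffer-like than endothelial-like cells of library 1, 8.68% were at least 2-fold lower in library 2, and their median was -0.29. These genes were chosen on Kupffer-like cells of library 1, which the ratio uses as well. Markers of other cell types moved in both directions in Kupffer-like cells. Of the 14 other marker lists, summed and set relative to the median gene, 5 had intervals above 0 (endothelial, stellate, hepatocyte, T or NK cell and cholangiocyte), 3 below (conventional dendritic cell, neutrophil and megakaryocyte) and 6 around 0. The conventional dendritic cell list went from 369 to 234 CPM, a log2 ratio of -0.37 (-0.48 to -0.26). The B cell list went from 331 to 272 CPM, at 0.01 (-0.10 to 0.12), and the monocyte list from 177 to 131, at -0.14 (-0.30 to 0.01). With only cells that had at least 50% of their fragments in peaks, again 5 of the 10 genes were lower by 2-fold. Whether this floor made the share in peaks alike between the libraries was not tested. With cell classes taken from marker fragments instead of clusters, 3 were lower by 2-fold. The share of all genes lower under these 2 settings was not counted.

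In the mixed leukocytes 1 of the 10 genes was lower by 2-fold in library 2. This was H2-Eb1, at -1.06, against 0.573% of all genes (3.37% were higher, and none of the 10), and the median of the 10 was -0.59. H2-Aa was at -0.26 (-0.89 to 0.42) in leukocytes against -1.58 (-2.17 to -1.07) in Kupffer-like cells, and Scimp at -0.44 (-0.98 to 0.13) against -1.34 (-1.64 to -1.07). The intervals of H2-Aa, Cd74 and Scimp did not overlap between the classes. For the other 7 they did. Endothelial-like cells gave 5 genes with enough fragments, none of which passed 2-fold in either direction, where 2.43% of all genes were lower and 8.62% higher. The leukocyte cluster is a mix whose make-up may differ between libraries, and with 1 library each the difference between classes was not tested.

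**Figure D2:**
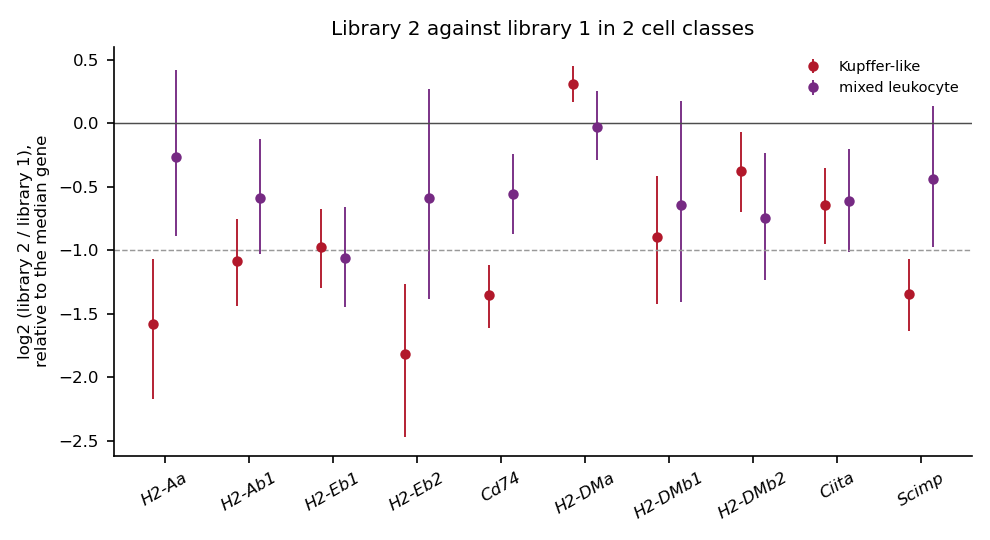
Log2 ratio of library 2 over library 1, relative to the median gene, for each gene in Kupffer-like and mixed leukocyte cells, with 95% conditional binomial intervals. The solid line is the median gene and the dashed line a 2-fold lower level. In Kupffer-like cells 9 of the 10 genes lie below the median gene and H2-DMa lies above it.

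Fragments were then placed in 1 kb tiles over each gene with 10 kb on both sides, 306 tiles in all, to separate starts from distal DNA. A start tile lies within 1 kb of a gene start, and a distal tile lies outside the 10 genes and more than 1 kb from every annotated gene end. Starts came from the promoter table for 6 genes. For H2-Ab1, Cd74, Ciita and Scimp the annotated end with more fragments was used. For Scimp this choice was nearly a tie, 141 against 142 fragments. In H2-Aa and H2-Ab1, distal tiles held most of the Kupffer-like signal: 64.0% (59.7 to 68.2) and 61.0% (56.9 to 65.1) of fragments in library 1, against 30.4% and 29.8% in start tiles. For Cd74, Ciita, H2-DMb2 and Scimp the fullest of these shares lay inside a gene, at 45.2%, 61.7%, 52.3% and 39.1% in library 1. For H2-DMb2 that gene was mostly H2-DMa, since tiles were assigned to the nearest start. A tile inside H2-DMa, at chr17:34135001-34136000, held 193 of the 207 fragments in this share, which is thus not signal within H2-DMb2. H2-Eb1 was the gene with most signal at its start, 61.2% in library 1.

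The fullest single tiles near the I-A genes were distal. A tile 8.68 kb before the start of H2-Aa, at chr17:34296001-34297000, held 197 fragments in Kupffer-like cells of library 1 and 35 in library 2, or 34.0 and 9.04 CPM. In endothelial-like cells it held 24 and 33 fragments, 14.9 and 13.96 CPM, so that in library 2 it was not more open in Kupffer-like than in endothelial-like cells. The 2 fullest tiles before H2-Ab1, at chr17:34257001-34258000 and chr17:34261001-34262000, held 154 and 156 fragments in library 1, 43 and 23 in library 2, and at most 7 in endothelial-like cells of either library. The first of these lies within the annotated record of the neighbouring gene Gm20506. Beyond H2-Eb2, a tile 21.8 kb past its start at chr17:34347001-34348000, on the far side of H2-Ea, held 114 and 35 fragments in Kupffer-like cells and 30 and 29 in mixed leukocytes, against 1 and 3 in endothelial-like cells. These tiles of H2-Ab1 and H2-Eb2 were nearly without fragments in endothelial-like cells, unlike that of H2-Aa. For Ciita, a tile before the start at chr16:10476001-10477000 held 49 and 8 fragments and one 2.49 kb inside the gene 63 and 17, with 1 or 2 in endothelial-like cells of each library. At H2-DMb2 the start listed in the promoter table lies inside the gene record: start tiles held 9 and 6 fragments in Kupffer-like cells, and a tile 1.75 kb before it, at the edge of the record, held 123 and 66.

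Of the 38 tiles with at least 50 Kupffer-like fragments over both libraries, 17 were at least 2-fold lower in library 2 and none was 2-fold higher. Over all tiles of the genome with that minimum, 15.5% were lower and 1.73% higher. The lower share was 1493 of 14888 tiles near a gene end and 3560 of 17782 tiles away from gene ends. By position, 7 of 13 start tiles, 5 of 9 distal tiles and 3 of 9 tiles inside genes were lower. Summed over all 10 genes, start tiles went from 1535 to 458 fragments, a log2 ratio of -0.87 (-1.03 to -0.72), and distal tiles from 1597 to 455, at -0.94 (-1.09 to -0.79). These intervals overlap, so no difference between starts and distal tiles was detectable in the sum over all 10 genes, which includes the start tiles of H2-DMa shared with Brd2. Tiles inside genes were at -0.63 (-0.78 to -0.49). Without H2-DMa, left out after the overlap with Brd2 was seen, start tiles were at -1.46 (-1.67 to -1.25), distal tiles at -1.01 (-1.17 to -0.85) and inside tiles at -0.64 (-0.79 to -0.50). In this sum, chosen after seeing the data, start tiles were lower than distal tiles without overlap of intervals. Its inside tiles still include the tile of H2-DMa that was assigned to H2-DMb2.

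The library ratio of Cd74 differed along its length. The tile at its start held 195 fragments in Kupffer-like cells of library 1 and 15 in library 2, or 33.7 and 3.88 CPM, while tiles 1.65, 2.65 and 3.65 kb inside the gene went from 152 to 51, from 97 to 19 and from 88 to 38. Summed, the start tiles were at a log2 ratio of -2.65 (-3.38 to -2.05) and the inside tiles at -0.69 (-0.99 to -0.40), and these intervals do not overlap. The share of Cd74 fragments in start tiles went from 29.9% (26.9 to 33.1) to 11.9% (7.60 to 17.4). In mixed leukocytes the same start tile held 37 and 56 fragments, 47.3 and 25.7 CPM, above the Kupffer-like level in both libraries. Scimp also had a lower ratio in its start tiles, from 105 to 10 fragments at -2.46 (-3.62 to -1.58), than in its distal tiles, at -0.63 (-0.99 to -0.28), where the choice of its start was the near tie given above and the tiles at its other end were at -0.92 (-1.45 to -0.43). Ciita had the opposite order, with overlapping intervals: its start tiles, from 41 to 21 fragments, were at -0.08 (-0.93 to 0.70) and its distal tiles at -1.48 (-2.25 to -0.82). With windows of 1 kb around the start in place of the gene, the ratio of Ciita turned from -0.64 to 0.23. The H2-DM cluster also stood apart, with start tiles at -0.05 (-0.27 to 0.16) and distal tiles at -0.38 (-0.74 to -0.04), and most of its start fragments come from tiles shared with Brd2.

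**Figure D3:**
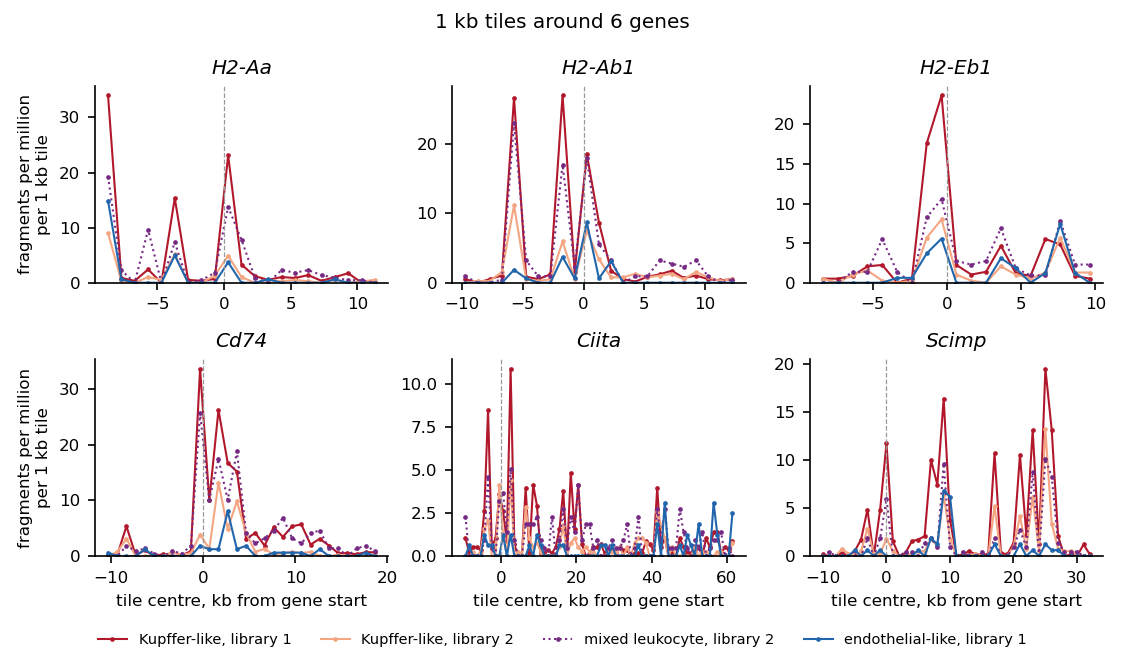
CPM in 1 kb tiles against the distance of the tile's centre from the start of the nearest of the 10 genes (dashed line), for 6 genes. Lines are Kupffer-like cells of libraries 1 and 2, mixed leukocytes of library 2 and endothelial-like cells of library 1. Distal peaks stand beside H2-Aa and H2-Ab1, and the peak at the start of Cd74 is 33.7 in library 1 and 3.88 in library 2.

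Whether Ciita went with the other genes in single cells was asked in Kupffer-like cells thinned to 5000 fragments each, which left out 31 and 23 shallower cells and kept 304 and 236. Class II fragments here are those over H2-Aa, H2-Ab1, H2-Eb1 and Cd74 with 10 kb on both sides. At this depth 79.9% of Kupffer-like cells of library 1 (75.0 to 84.3, exact binomial) and 38.1% of library 2 (31.9 to 44.7) held at least 1 class II fragment, against 36.3% and 19.7% of endothelial-like cells. Of stellate-like cells 32.0% (19.5 to 46.7) of 50 and 40.0% (21.1 to 61.3) of 25 did. In library 2 Kupffer-like cells thus did not stand above stellate-like cells. The mean was 2.05 and 0.71 fragments per Kupffer-like cell and 0.48 and 0.68 per stellate-like cell. In library 1 the class II level was close in both Kupffer-like clusters, 444 CPM (417 to 473) and 400 (380 to 421).

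In library 1, 99 cells with a Ciita fragment held 1.93 class II fragments each and 205 cells without one held 2.11, a log2 ratio of -0.13 (-0.38 to 0.12). In library 2, 40 cells with a Ciita fragment held 0.825 and 196 without held 0.689, a ratio of 0.28 (-0.34 to 0.82). Shares of cells with a class II fragment were 80.8% against 79.5% in library 1 and 42.5% against 37.2% in library 2. Thinning did not equalize the share of fragments in peaks. Its median was 74.5% in cells with and 73.8% in cells without a Ciita fragment in library 1, and 61.6% against 52.3% in library 2. The part of this in the ratios was not tested. In thinned cells and with these 4 genes no difference was thus detectable in either library. The intervals reach 0.12 and 0.82 on the log2 scale, which does not bound how far Ciita goes with these genes. A Ciita fragment was found in 61.2% and 30.5% of cells before thinning and in 32.6% and 16.9% after it. Cells counted as without one thus include cells whose Ciita fragments were left out. Without thinning, where depth varies between cells, the intervals lay above 0, at 0.67 (0.54 to 0.80) and 0.48 (0.23 to 0.73). The variance of class II fragments over cells was 1.79 and 3.62 times the mean, so that intervals which treat fragments as independent are too narrow.

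For comparison, 10 other genes of macrophages or blood cells were put in the place of Ciita. Their ratios ran from -0.16 to 0.27 with a median of 0.08 in library 1, and from -0.42 to 1.38 with a median of 0.25 in library 2, so Ciita lay within their range in both. The largest was Lyz2, the lysozyme gene, in library 2. Of the 576 class II fragments of Kupffer-like cells in library 2, 90 lay in local pile-ups of 3 cells. After thinning, 1 cell held 19 class II fragments and the next held 7. Masked cells were thinned anew, so that they differ in the random draw as well. With pile-ups masked, Lyz2 was at 0.09 (-0.44 to 0.58) and Ciita at 0.05 (-0.58 to 0.60) in library 2, and Ciita was at -0.08 (-0.34 to 0.17) in library 1. With all 9 other genes counted in place of 4, the ratio for Ciita in library 2 was 0.60 (0.30 to 0.89), an interval above 0 with pile-ups kept, and -0.03 (-0.20 to 0.13) in library 1. The 2 groups of library 2 cells differed in their share of fragments in peaks, as given above, and its part in this ratio was not tested.

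**Figure D4:**
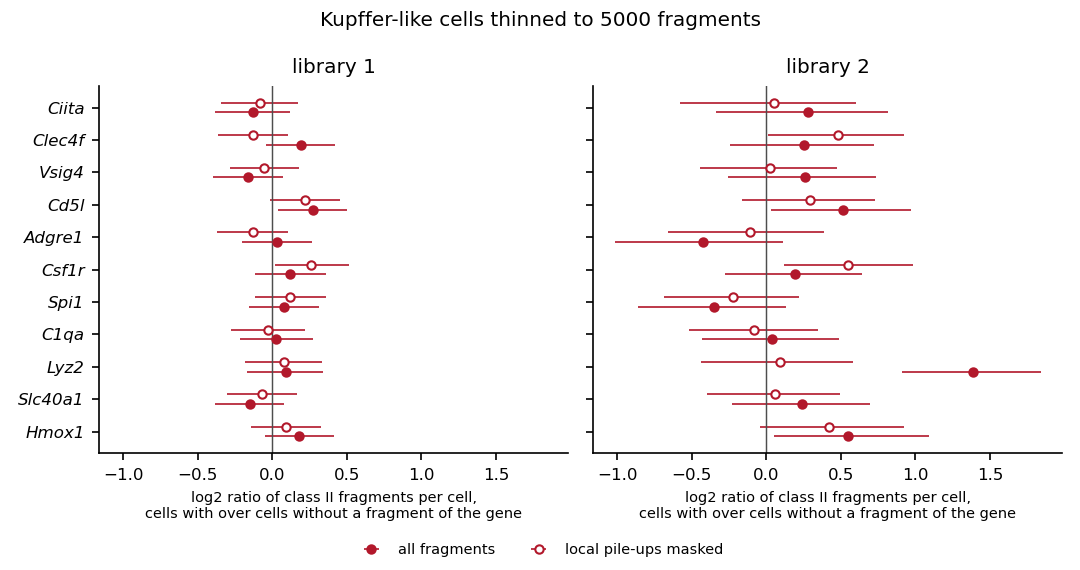
Log2 ratio of class II fragments per Kupffer-like cell between cells with and cells without a fragment of the gene named on the left, in cells thinned to 5000 fragments, with 95% conditional binomial intervals. Filled points use all fragments and open points leave out local pile-ups. Ciita lies at -0.13 in library 1 and 0.28 in library 2, and the Lyz2 value of 1.38 in library 2 stands beside 0.09 in the masked and newly thinned cells.

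In the mixed leukocytes the intervals for Ciita, which treat fragments as independent, lay above 0. There, 21 cells with a Ciita fragment held 3.57 class II fragments each against 2.23 in 26 cells without, a ratio of 0.68 (0.165 to 1.199) in library 1. In library 2, 25 cells held 2.60 against 1.56 in 59 cells, a ratio of 0.74 (0.26 to 1.21), and shares of cells with a class II fragment were 92.0% against 54.2%. With pile-ups masked the ratios were 0.53 (0.02 to 1.05) and 0.39 (-0.10 to 0.86). Of the 10 comparison genes, 3 in library 1 and 2 in library 2 also had intervals above 0 in these cells. With pile-ups masked 1 and none had, and 3 in library 2 had intervals below 0. The variance of class II fragments over thinned mixed leukocytes was 2.187 times the mean in library 1 and 2.498 times in library 2. These intervals are thus too narrow, and whether those for Ciita would still lie above 0 was not tested. The cluster holds several cell types, whose part in the relation was not tested, and the difference from Kupffer-like cells was not tested.

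Other pairs were examined in the same way between 5 blocks: the I-A and I-E genes, the H2-DM genes, Cd74, Ciita and Scimp. Of 10 pairs, 1 in library 1 and 4 in library 2 had intervals above 0, and with pile-ups masked none and 2 did. The 2 that stayed in library 2 paired the I-A and I-E genes with Cd74 (0.98, 0.27 to 1.72) and with the H2-DM genes (0.64, 0.30 to 0.98). In library 1 the first of these was at 0.47 (-0.01 to 0.99) with pile-ups masked. No pair had an interval below 0.

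The rest of the pathway was read from lists of 41 genes. Of 12 genes of peptide loading and processing or costimulation, 11 had enough fragments, and 6 were at least 2-fold higher and 1 lower in Kupffer-like than endothelial-like cells of library 1, against 12.1% and 9.74% of all genes. In library 2, 2 of 11 were higher, Cd86 and H2-Ob, against 10.1%. The costimulatory ligand Cd86 was at 3.48 and 1.91 in libraries 1 and 2, and Ctss, the protease that trims the invariant chain, at 3.48 and 0.93. Cd9, a tetraspanin, was the 1 lower gene at -1.40. Between libraries, Ctss was at -1.23 and H2-Oa, a chain of the H2-DM inhibitor, at -1.66, from 43 to 7 fragments, where 3.28% of all genes were lower, and the list's median was -0.26. Of the 9 genes for proteins that bind class II promoters or act with Ciita, such as Rfx5 and Nfya, none passed 2-fold in either class comparison or between libraries, and their median between libraries was -0.03. Of 11 regulators of Ciita, Spi1 and Irf4 were higher in Kupffer-like cells of library 1 and Spi1 in library 2, at 1.97 and 1.74 for Spi1. These counts of 2 and 1 of 11 stand beside 12.1% and 10.1% of all genes, and none of the 11 passed between libraries. The 9 class I genes, including B2m and the class I coactivator Nlrc5, had none past 2-fold in these 3 comparisons, with a median of -0.18 between libraries.

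Across 10 sums of cells by class and library, the genes outside these loci whose level followed the class II sum most closely were Pdcd2l (Pearson r 0.97), Setd1b, R3hdm2, Csk and Slc26a6, among 10595 genes with at least 500 fragments. H2-DMb1 was at 0.96, H2-DMb2 at 0.90, H2-Eb2 at 0.85, H2-DMa at 0.66, Ciita at 0.64 and Scimp at 0.52. These are descriptions over sums that share libraries and depth.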

How the data were processed

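Fragments and per-barcode counts were deposited by the authors for both libraries together. Per the submitters' processing notes the tools were Cell Ranger ATAC 1.2.0, R 3.6.1, Seurat and Signac 0.2.4, and the build was GRCm38.p5. The fragment file gives, for each unique fragment, its ends, its barcode and its count of read pairs, and the deposited counts per barcode give fragments in peaks and near starts. Fragments of barcodes the authors called as cells were used, once each: a gene level counts fragments that overlap the window, and a tile counts fragment midpoints. A cell was kept if 1000 fragments and 15% of its fragments lay in peaks and no more than 5% in blacklisted regions.

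The 10 genes and all lists were chosen with earlier results of these data known. Bins of 5 kb (the 20000 fullest, without those within 10 kb of the 10 genes) were reduced to 20 components (scikit-learn 1.9.0) and clustered with Leiden (leidenalg 0.10.2, resolution 0.7, 20 neighbours). Each library was clustered apart. Clusters were named from 15 lists of 130 markers. Doublets were kept: fragment overlap or simulated pairs marked 64 and 90 cells.

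Gene models were those of RefSeq GRCm38.p6, the named gene rule covered all 10 genes, each gene's fullest tile and its extreme distal and inside tiles with at least 50 fragments, and the listed pathway genes with the most extreme ratios or past 2-fold. Ratios had 0.5 added to each count. The ratio script was tested on simulated data. Alternatives were other cell filters, class rules, windows, scaling, thinning, masking of pile-ups, doublet removal and counting of insertions.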

Additional observations from a re-analysis of the deposited data

How the results depend on the processing

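Over the alternatives tried, 67 values for the main comparisons stayed within counting error or within 1.5 times of the count given and 3 did not. These were the number of genes at least 2-fold lower in library 2, which was 3 in place of 5 with classes taken from marker fragments, the number at least 2-fold higher in Kupffer-like cells of library 2, which was 2 in place of 5 with windows of 1 kb around the start, and the summed start tiles, at -1.46 in place of -0.87 without H2-DMa, an alternative chosen after seeing the data. For these gene counts, the share of all genes called under the alternative was not counted. With the 1 kb windows the library ratio of Ciita reversed, to 0.23. The causes were not tested. Scaling by fragments near starts could change no ratio, since those it was applied to are relative to the median gene. Leaving out the minimum of fragments could change no single gene's ratio, only which genes were counted. Both alternatives are among the values that stayed, so the counts of values that stayed overstate how much was tried. A value that stayed can still read otherwise. The per-cell Ciita ratio of library 2 stayed when all the other genes were counted. Its interval then no longer included equal levels, unlike that of the main result. For single genes, 250 values stayed within their interval, 17 did not and 1 reversed. No paired analysis was possible because each genotype has 1 library and no label ties a barcode suffix to it. Counts were low: endothelial-like cells held 5 to 60 fragments of each gene other than H2-DMa, a thinned Kupffer-like cell held 2.05 or 0.71 class II fragments, and a Ciita fragment was found in 32.6% and 16.9% of them.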
